A study of Mus musculus with 16 samples.

Results

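Cytosolic ribosomal protein genes were described in CD31+ endothelial cells of mouse embryos with different Notch1 doses. The set holds every gene symbol that starts with Rpl or Rps and a digit, together with Rplp0, Rplp1, Rplp2 and Rpsa, without the S6 kinase genes and without symbols of pseudogene style. Of 22096 gene symbols in the deposited tables, 86 matched, and 83 were kept because their mean level over all 16 libraries was at least 1 FPKM, a count of sequenced fragments divided by transcript length and by the size of the library. The members were thus chosen by symbol and by mean FPKM, and the mean levels given here are a description. By symbol, 31 members belong to the small subunit, 43 to the large subunit and 3 to the P0 and stalk group, while 6 are paralogs or other genes caught by the name pattern.

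A cytosolic ribosome joins a small subunit, which reads the mRNA, to a large subunit, which forms the peptide bond. Each ribosomal protein is needed in about equal amount per ribosome, and in mammals most of these mRNAs carry a terminal oligopyrimidine tract, a run of C and T bases at the transcription start through which growth signals acting on mTOR control their translation. Notch1 is a receptor that is cut upon ligand binding and releases its intracellular domain, a transcriptional activator that endothelial cells need for artery formation and sprouting control.

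Endothelial cells had been sorted with CD31 antibodies from whole embryos at embryonic day 9.5, and RNA libraries were made by tagmentation. The 6 genotypes combine 4 Notch1 alleles: + is wild type, - is a deleted copy, vg carries the substitution V1744G, which the labels describe as giving a less stable intracellular domain, and 12 codes for a Notch1 whose intracellular domain is replaced by that of Notch2. The groups were +/+, +/-, +/vg and +/12, with 3 libraries each and endothelial development described as normal, 12/vg with 1 library and partial dysfunction, and 12/- with 3 libraries and dysfunction. The 12/- cells therefore had no wild-type Notch1 allele and no second copy of the gene, and they differ from +/12 by the loss of the wild-type allele alone. Whether 1 embryo or a pool went into each library is not stated in the labels, and p-values therefore reflect no more than the spread between libraries, part of which may be technical. In such bulk samples, a shift in the mix of cells and a shift in RNA per cell cannot be told apart.

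Depth, read as aligned sequence from the ratio of the deposited coverage to FPKM, was 0.189 gigabases for +/- replicate 2, 0.262 for the 12/vg library and 1.11 to 1.80 for the other 14. Library numbers in the deposited names fall into a range from 203 to 248, with 9 libraries, and a range from 371 to 380, with 7. Every +/+ library falls in the upper range and every library with the 12 allele in the lower one, so that among libraries of normal development only +/12, +/- replicate 3 and +/vg replicate 3 share a range with 12/-. All 20 endothelial markers looked at had a mean of at least 1 FPKM; over the libraries, Pecam1 ranged from 46.1 to 89.2, Cdh5 from 149 to 243, Kdr from 65.0 to 104 and Tie1 from 25.3 to 50.7.

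By FPKM, the members were among the most abundant transcripts of these cells. Their median mean level was 1176 FPKM, 49 of the 83 reached 1000 FPKM, and 59 of the 100 genes with the highest mean were members. FPKM is divided by transcript length, so the order of different genes depends on the transcript models as well as on the reads. Whether that division holds for very short transcripts was not tested, and the ranking is by FPKM only. The transcripts were short, with a median longest transcript of 703 nucleotides against 2692 for all genes tested, and 65 members stayed under 1000 nucleotides. The highest means belonged to Rpl41 with 8565 FPKM, Rps29 with 4231, Rpl39 with 4227, Rps20 with 3790 and Rpl38 with 3628. Their longest transcripts had 449, 390, 394, 502 and 369 nucleotides in that order. Rpl38 is known in the mouse embryo for its part in the translation of Hox mRNAs.

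Among the members reported by name, the lower end held Rpl7l1 with 17.9 FPKM, Rps19bp1 with 22.5, Rps4y2 with 56.5 and Rps15a with 57.4. These 4 are of different kinds: Rps19bp1 codes for a nucleolar protein that binds Rps19 and is no subunit of the ribosome, Rpl7l1 is a paralog of Rpl7, and Rps15a is a core subunit. The only transcript model of Rps15a spans 5134 nucleotides, far above the members' median. The 3 symbols just outside the minimum were Rpl39l with a mean of 0.211 FPKM, Rpl10l with 0.107 and Rpl3l with 0.0295, all copies of core genes known for testis or muscle expression. Ribosomal protein genes have many near-identical processed copies in the mouse genome, so reads shared with such copies make the level of any member uncertain.

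**Figure D1:**
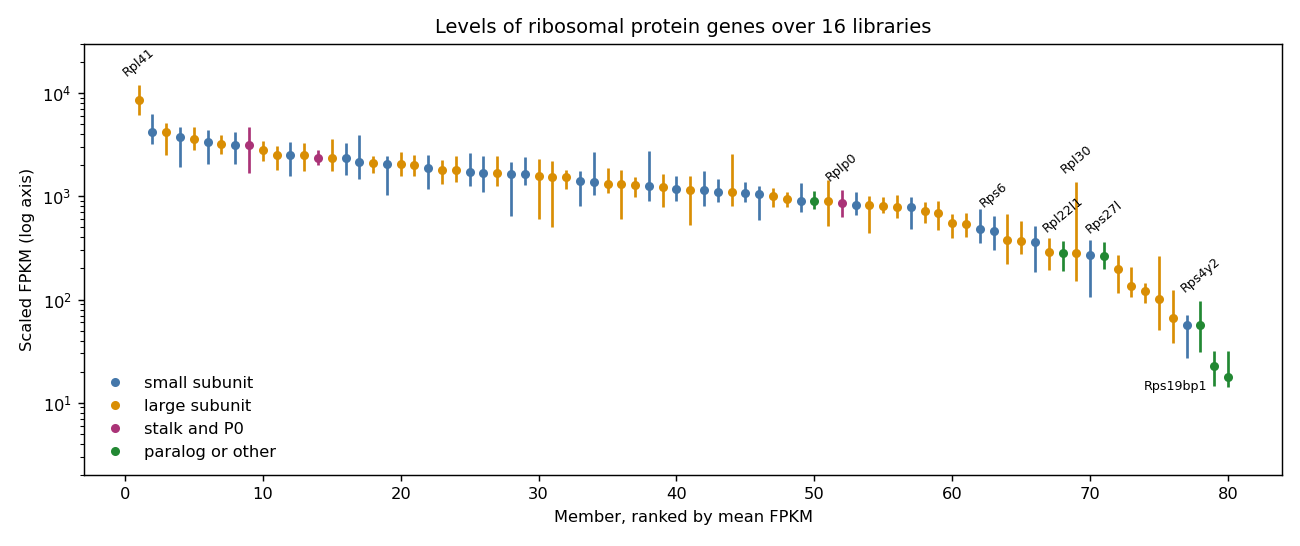
Level of 80 of the 83 members, ranked by mean FPKM on the horizontal axis; the vertical log axis gives scaled FPKM, points are means over 16 libraries and lines run from the lowest to the highest library. Rpl41 stands at the top with 8535 and Rpl7l1 at the bottom with 17.9, and Rpl30 has the longest upward line.

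The members varied between libraries about as much as all genes tested. Levels from here on are scaled FPKM, which means FPKM divided by a median-ratio factor for the library, and variation is the SD of log2(scaled FPKM + 1). The median SD over members was 0.28 across all 16 libraries, against 0.26 for all genes tested, and 0.20 across the 14 deep libraries, against 0.22. Over 16 libraries the SD was smallest for Rpl27 (0.14), Rps24 (0.16), Rpl37a (0.16), Rpl36al (0.17) and Rpl7 (0.17). Among the members reported by name it was largest for Rpl30 (0.85), Rpl26 (0.55), Rpl34 (0.53) and Rpl29 (0.50), and over the 14 deep libraries the SD was 0.23, 0.35, 0.45 and 0.30 in that order. Rpl30 reached 1385 in +/- replicate 2 and 594 in the 12/vg library and lay between 150 and 243 in the other 14. In +/- replicate 2, Rpl26 was also at its highest, with 266, and Rpl29 at its lowest, with 508. The heat map of members by library shows this library as the column with the strongest colours in both directions.

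**Figure D2:**
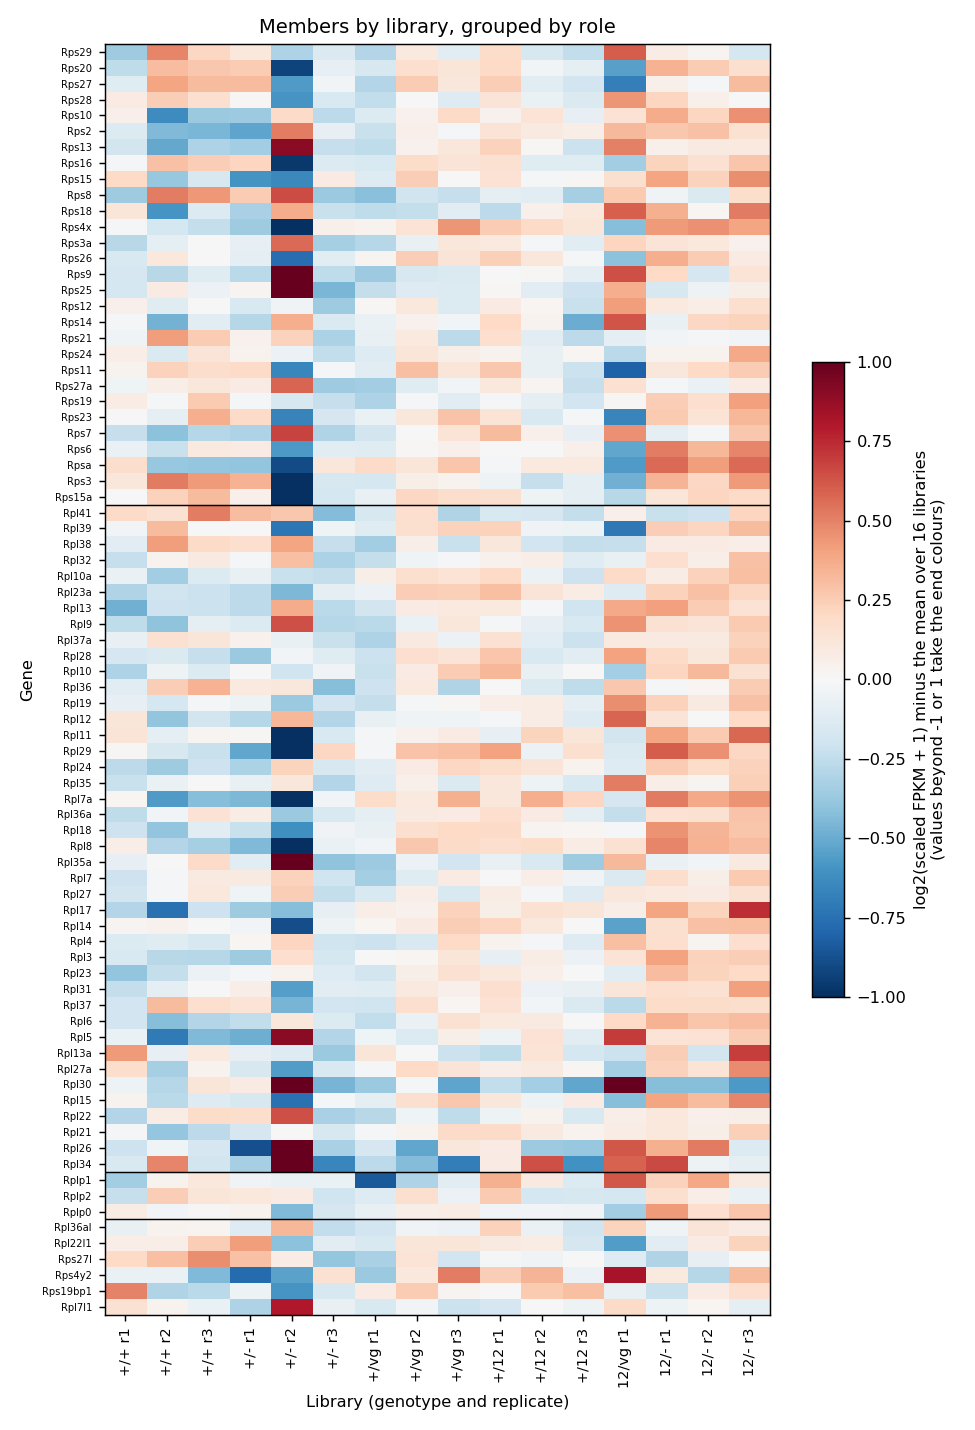
Heat map of log2(scaled FPKM + 1) minus each gene's mean over 16 libraries, with 80 members in rows by role (small subunit, large subunit, P0 and stalk, paralogs and other, from the top) and libraries in columns by genotype. The 3 columns of 12/- are mostly red, and the shallow libraries +/- replicate 2 and 12/vg replicate 1 hold the largest single deviations.

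Together the members took up close to 30% of all summed FPKM, and the share was highest in 12/-. It was 28.2%, 30.05% and 29.8% in the +/+ libraries (29.3% ± 1.02, SD, n = 3) and 29.7%, 26.8% and 28.7% in +/- (28.4% ± 1.51, SD, n = 3). In +/vg it was 28.0%, 30.2% and 30.3% (29.5% ± 1.32, SD, n = 3), and in +/12 it was 30.3%, 29.1% and 28.0% (29.1% ± 1.17, SD, n = 3). The means of these 4 genotypes lie within 1 SD of each other. The 12/vg library had 29.6%, inside the range of the 12 libraries with normal development, and the 12/- libraries had 32.6%, 31.4% and 31.9% (32.0% ± 0.601, SD, n = 3). Each 12/- library thus lay above each of the other 13, whose highest value was 30.3%. No p-value is given for the share, because it is a score over members chosen with results known.

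The order held for other ways of taking the share. Taken over FPKM times transcript length, which only approximates the share of aligned bases, the 12/- libraries had 14.9% to 15.9% and the other 13 had 12.6% to 14.6%. Both parts of the set gave that order: the Rps and Rpsa genes made up 13.2% to 13.9% in 12/- against at most 12.9% elsewhere, and the Rpl and Rplp genes 18.2% to 18.7% against at most 17.5%. The share of Mtrnr2l, an abundant short transcript named for its likeness to a mitochondrial rRNA, was 4.26% to 5.65% in 12/- and 4.51% to 9.32% in the other libraries. With Mtrnr2l left out of the sum, the 12/- libraries had 33.3% to 34.04% and the others at most 32.8%. Among the 5 libraries of normal development in the low range of library numbers, the share was 28.0% to 30.3%, so the 3 libraries of 12/- lay above those too.

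**Figure D3:**
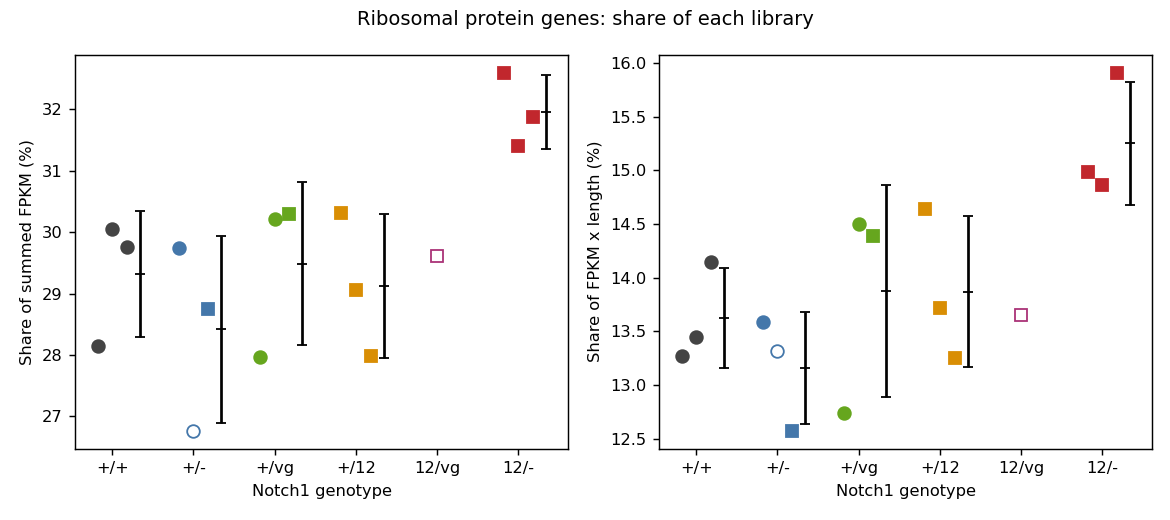
Members' share of summed FPKM (left) and of FPKM times transcript length (right) in percent, by Notch1 genotype; circles are libraries of the high and squares of the low range of library numbers, open symbols are the 2 shallow libraries, and bars give mean and SD. The axes do not start at 0; the 3 squares of 12/- sit above all other symbols in both panels.

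For single genes, 81 members were tested with limma on log2(scaled FPKM + 1) together with all 10550 genes of at least 1 FPKM. Rpl34 and Rpl38 were not tested because a transcript of theirs had a status other than OK in the authors' status column in some library. Calls were made where the p adjusted by Benjamini-Hochberg over all genes tested was under 0.05. The 12/- comparisons share the 12/- libraries and the heterozygote comparisons share the +/+ libraries, so they are not independent of each other.

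Against +/12, the genotype that differs from 12/- only in the wild-type allele, most ribosomal protein genes were slightly higher in 12/-, but none passed the test. The log2 difference was above 0 for 76 of the 81 members, against 48.2% of all genes tested, and its median was 0.18, against -0.00 for all genes. No member was called by limma, where 0.209% of all genes were called, and 4 members had an unadjusted p under 0.05, all higher (3.33% of all genes). The libraries of 12/- lay above all those of +/12 for 31 members (7.93% of all genes) and below them for 0 (6.84% of all genes). Large-subunit genes had a median of 0.19, with 40 of 41 above 0, and small-subunit genes 0.18, with 30 of 31 above 0. The 6 paralogs and other genes had a median of -0.04, with 3 above 0. Both genotypes lie in the low range of library numbers.

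The lowest unadjusted p-values in that comparison belonged to Rps19 and Rps6. Rps19, a small-subunit protein needed for maturation of that subunit and mutated in Diamond-Blackfan anaemia, stood at 970, 920 and 1091 in 12/- and at 809, 766 and 716 in +/12. The groups did not overlap, and the log2 difference was 0.38 ± 0.12 (SE; limma adjusted p = 0.557). The +/+ libraries, with 861, 814 and 984, overlapped 12/-, so Rps19 was not set apart from wild type. Rps6, the small-subunit protein phosphorylated by S6 kinase downstream of mTOR, stood at 640, 566 and 629 in 12/- and at 448, 450 and 465 in +/12, a log2 difference of 0.43 ± 0.15 (SE; limma adjusted p = 0.704). All 12 libraries of normal development lay below 12/- for Rps6, between 301 and 479, and the 12/vg library had 312. On the lower side, Rps19bp1 differed by -0.18 ± 0.21 and Rps27l by -0.11 ± 0.17 (SE; limma adjusted p = 1.0 for both), with overlapping libraries.

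Against wild type, 2 large-subunit genes rose in 12/-. Rpl17, whose protein lines the tunnel through which the new peptide leaves, stood at 1144, 1014 and 1448 in 12/- and at 710, 518 and 753 in +/+. The groups did not overlap, the means were 1202 and 660, and the log2 difference was 0.87 ± 0.16 (SE; limma adjusted p = 0.0318). The means of the other genotypes lay between these means, but the libraries of +/- overlapped those of +/+. Rpl17 was 677, 646 and 821 in +/-, 911, 895 and 1018 in +/vg, 906, 966 and 944 in +/12 and 909 in the 12/vg library. Only +/vg replicate 3 passed a library of 12/-. Rpl6, another large-subunit protein (mm9 chr5:121654510-121659250), stood at 687, 652 and 668 in 12/- and at 472, 402 and 440 in +/+, a log2 difference of 0.61 ± 0.12 (SE; limma adjusted p = 0.0472). Here all 3 libraries of 12/- lay above each of the other 13, of which the 12/vg library was the highest with 618. All +/+ libraries lie in the high and all 12/- libraries in the low range of library numbers; with that range as a covariate the log2 differences were 0.62 for Rpl17 and 0.49 for Rpl6, and both calls were lost (limma adjusted p = 0.649 for both).

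These were 2 of the 81 members tested, where 0.607% of all genes were called in that comparison and 0.54% were called higher. The log2 difference from +/+ was above 0 for 65 of 81 members (49% of all genes), with a median of 0.25, and 27 members had an unadjusted p under 0.05 in the upward direction (6.97% of all genes). Libraries did not overlap for 38 members higher in 12/- (10.4% of all genes) and for Rpl30 and Rps27l lower (9.46% of all genes). The large-subunit genes had the larger median, 0.35, with 37 of 41 above 0, against 0.17 for the small subunit, with 22 of 31 above 0. Whether the subunits differ was not tested. Without the 2 shallow libraries, neither of which belongs to these groups, 9 members were called and all were higher in 12/-: Rpl3, Rpl6, Rpl18, Rpl17, Rpl24, Rps6, Rpl7a, Rpl13 and Rpl23a (1.08% of all genes). With the library number range as a covariate as well, 0 members were called (19 genes in all).

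Against +/-, which shares the deleted allele with 12/-, the members' median was 0.31 and 69 of 81 were above 0 (49.6% of all genes). No member was called by limma (0.569% of all genes), although 38 had an unadjusted p under 0.05 in the upward direction (6.73% of all genes). Rpl18, a large-subunit protein, stood at 1654, 1539 and 1470 in 12/- and at 1041, 792 and 1183 in +/-, a log2 difference of 0.65 ± 0.14 (SE; limma adjusted p = 0.0850). The libraries did not overlap, and the lowest of the 3 values in +/- came from the shallow library. For Rpl17 the log2 difference was 0.74 ± 0.16 (SE; limma adjusted p = 0.0765). Libraries of 12/- lay above those of +/- for 36 members (7.74% of all genes) and below for 0 (6.41% of all genes). On the lower side, Rpl30 differed by -1.23 ± 0.55 (SE; limma adjusted p = 0.416) and Rps25 by -0.30 ± 0.29 (SE; limma adjusted p = 0.712), where +/- replicate 2 alone, with 1385 and 2767, lay far above the other libraries of that genotype. Without the 2 shallow libraries the sign for Rps25 turned, to 0.16, and 1 member was called, Rpl3 (0.56 ± 0.10, SE; limma adjusted p = 0.0310), whose protein reaches the peptidyl transferase centre (0.379% of all genes). Rpl30 differed by -0.29 without +/- replicate 2. Without +/- replicate 3, 10 members were called (1.48% of all genes).

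Against +/vg, the median was 0.19, with 77 of 81 members above 0 (48.8% of all genes), and no member was called by limma (0.445% of all genes), with 7 at an unadjusted p under 0.05, all higher (5.19% of all genes). Libraries of 12/- lay above those of +/vg for 32 members (10.2% of all genes) and below for 0 (10.5% of all genes). Rplp1, an acidic protein of the stalk that recruits elongation factors, stood at 3566, 3978 and 3250 in 12/- and at 1701, 2460 and 2811 in +/vg. The groups did not overlap, and the log2 difference was 0.66 ± 0.19 (SE; limma adjusted p = 0.209). The 12/vg library had the highest Rplp1 of all, 4682. Rps19 differed by 0.42 ± 0.12 (SE; limma adjusted p = 0.208). Rps19bp1 differed by -0.11 ± 0.21 and Rpl30 by -0.17 ± 0.55 (SE; limma adjusted p = 0.922 and 0.962), both with overlapping libraries.

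Set against the mean of the 4 genotypes with normal development, 75 of 81 members were above 0 in 12/- (49.1% of all genes), with a median of 0.25. No member was called by limma (0.787% of all genes), 28 had an unadjusted p under 0.05 and all of these were higher (6.57% of all genes). All 3 libraries of 12/- lay above all 12 libraries of normal development for 15 members (1.91% of all genes), and below them for 0 (0.929% of all genes). In the small subunit these included Rps6, Rps10 and Rpsa, in the large subunit Rpl3, Rpl6, Rpl7a, Rpl8, Rpl11, Rpl15, Rpl18, Rpl19 and Rpl23, and besides these Rplp0, the anchor of the stalk. Among the tested members, Rpl17 (0.57 ± 0.13, SE; limma adjusted p = 0.0668) and Rps6 (0.51 ± 0.12, SE; limma adjusted p = 0.0758) had the smallest p on the higher side. Rps27l (-0.17 ± 0.13) and Rpl30 (-0.48 ± 0.44) had the smallest on the lower side (SE; limma adjusted p = 0.677 and 0.720), and Rpl30 differed by -0.24 without +/- replicate 2. Without the 2 shallow libraries, 5 members were called, all higher in 12/-: Rpl3, Rps6, Rpl6, Rpl18 and Rpl11 (1.31% of all genes).

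Rplp0 and Rpsa show this pattern in full. Rplp0 stood at 1150, 959 and 1037 in 12/-, while the 12 libraries of normal development ran from 629 through a median of 839 to 901, and the 12/vg library had 669. The log2 difference from the mean of the 4 genotypes was 0.34 ± 0.10 (SE; limma adjusted p = 0.157). Rpsa, the small-subunit protein also known as the laminin receptor precursor, stood at 511, 463 and 511 in 12/-, against 186 to 419 with a median of 371 in the libraries of normal development and 234 in the 12/vg library, a log2 difference of 0.60 ± 0.17 (SE; limma adjusted p = 0.152). For Rps6, Rplp0 and Rpsa alike, the 12/vg library and +/- replicate 2, the 2 shallow libraries, held the lowest values. Within the low range of library numbers, 27 members lay higher in all 3 libraries of 12/- than in all 5 libraries of normal development (4.72% of all genes), and 0 lower (4.09% of all genes). Rps6, Rplp0, Rpsa, Rps19 and Rpl6 were among the 27.

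**Figure D4:**
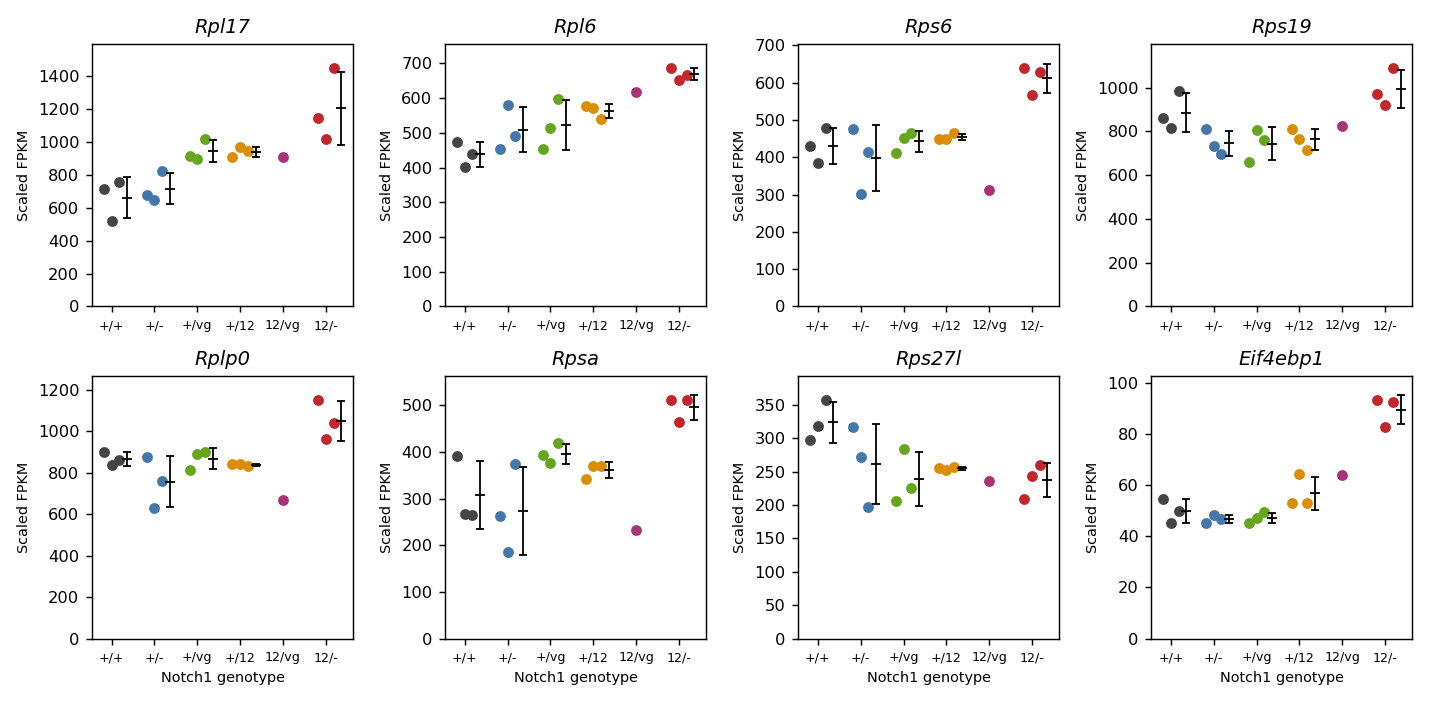
Scaled FPKM by Notch1 genotype for 7 members and for Eif4ebp1; each point is a library, and bars give the mean and SD where there are 3. The points of 12/- lie above all others for Rpl6, Rps6, Rplp0, Rpsa and Eif4ebp1. They overlap those of +/+ for Rps19 and of +/vg for Rpl17. For Rps27l they lie below those of +/+ and overlap those of +/12.

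In the comparisons of +/12, +/vg and +/- with +/+, no gene of any kind was called by limma (0% of all genes in each). For +/12 against +/+, 49 of 81 members were above 0 (50.1% of all genes), with a median of 0.10, and 11 had an unadjusted p under 0.05 (5.37% of all genes). Rpl23a, at the exit of the peptide tunnel, stood at 3046, 2712 and 2602 in +/12 and at 2011, 2153 and 2136 in +/+, a log2 difference of 0.41 ± 0.12 (SE; limma adjusted p = 0.863), and the groups did not overlap. Rpl17 differed by 0.53 ± 0.16, Rpl41 by -0.47 ± 0.20 and Rps27l by -0.34 ± 0.17 (SE; limma adjusted p = 0.898 for each). In that comparison 18 members lay higher without overlap (6.6% of all genes) and 4 lower (5.97% of all genes), and here too the range of library numbers and the genotype cannot be told apart.

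For +/vg against +/+, 47 members were above 0 (51.1% of all genes), the median was 0.02, and 10 had an unadjusted p under 0.05 (7.52% of all genes). Libraries did not overlap for 11 members higher (7.3% of all genes) and 4 lower (6.28% of all genes). Rpl23a (0.38 ± 0.12) and Rpl17 (0.53 ± 0.16) had the smallest p on the higher side (SE; limma adjusted p = 0.444 for both), and Rps27l (-0.45 ± 0.17) and Rps19 (-0.25 ± 0.12) on the lower side (SE; limma adjusted p = 0.592 and 0.669). For +/- against +/+, 36 members were above 0 (49.5% of all genes), the median was -0.05, and 3 had an unadjusted p under 0.05, all lower (7.51% of all genes in either direction). Of the members 0 lay higher without overlap (4.02% of all genes) and 4 lower (3.77% of all genes), namely Rpl13a, Rpl14, Rps19 and Rps28. Rps28 stood at 3129, 2057 and 2787 in +/- and at 3278, 3680 and 3461 in +/+, a log2 difference of -0.41 ± 0.15 (SE; limma adjusted p = 0.590). Rps15a differed by -0.56 ± 0.21, Rpl6 by 0.21 ± 0.12 and Rps13 by 0.44 ± 0.26 (SE; limma adjusted p = 0.592, 0.700 and 0.702). The high mean of Rps13 in +/- came from replicate 2, with 3895, since the other replicates had 1644 and 1778. Without that library the log2 differences from +/+ were 0.04 for Rps13, 0.11 for Rpl6, -0.23 for Rps28 and -0.24 for Rps15a.

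Whether losing the wild-type allele beside the 12 allele differs from losing it beside a second wild-type allele was tested as the difference between both contrasts. It was above 0 for 63 of 81 members (49.9% of all genes), with a median of 0.22, and no member was called by limma (0.0474% of all genes; 13 members at an unadjusted p under 0.05, against 6.56% of all genes, smallest adjusted p = 0.419, for Rps19). Without the 2 shallow libraries it was above 0 for 76 members, with a median of 0.24, against -0.004 for all genes. Again 0 members were called (smallest limma adjusted p = 0.481), but 0 of all genes were called in that setting. This test was added after the results were seen.

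**Figure D5:**
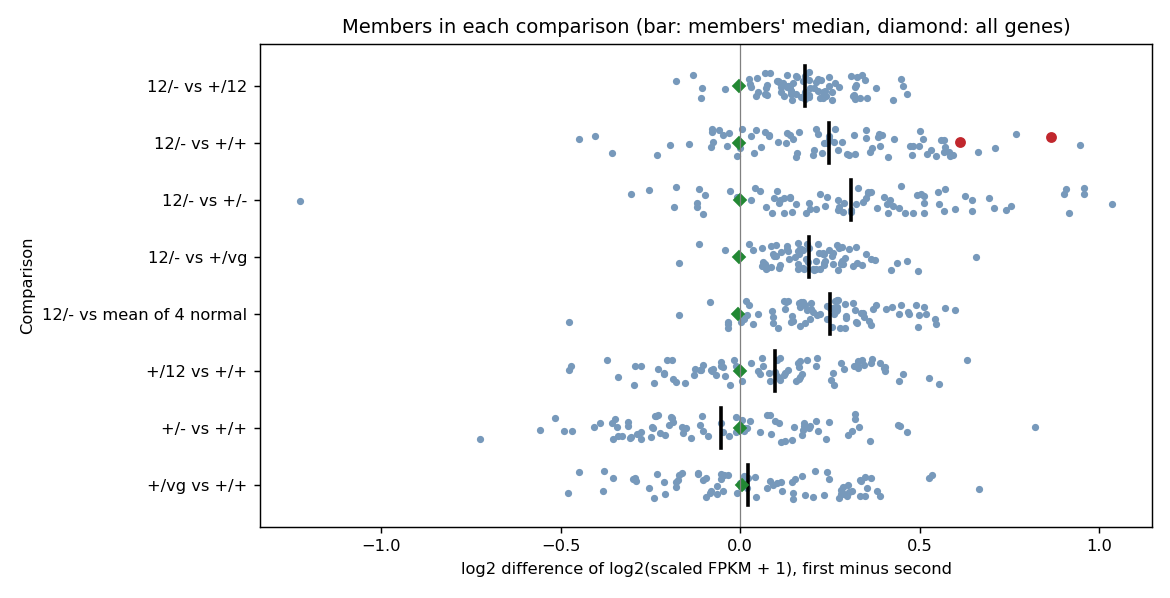
Log2 difference of each of the 81 tested members in 8 comparisons, first genotype minus second; black bars are the members' medians, green diamonds the medians of all 10550 genes, and red points the called members. In the 5 comparisons of 12/- the black bar lies between 0.18 and 0.31 and the diamond close to 0, and the 2 red points are Rpl17 and Rpl6 against +/+.

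The 6 paralogs and other genes had a median log2 difference of -0.01 between 12/- and +/+, with 3 above 0. Rps27l, a p53-inducible copy of Rps27, stood at 209, 243 and 259 in 12/- and at 297, 318 and 357 in +/+. Its groups did not overlap, with a log2 difference of -0.45 ± 0.17 (SE; limma adjusted p = 0.321), while Rps27 differed by -0.08 ± 0.23 (SE; limma adjusted p = 0.933). Rps27l was also lower than +/+ without overlap in +/vg (-0.45 ± 0.17, SE) and in +/12 (-0.34 ± 0.17, SE), and 12/- overlapped +/12. All +/+ libraries lie in the high and all 12/- libraries in the low range of library numbers. Rps27l gave 7.11% of the summed mean FPKM of its pair, with 5.73% to 8.89% in the 14 deep libraries. Rpl22l1 was the only paralog looked at that exceeded its partner, with 67.7% of the pair (64.5% to 73.2% in the deep libraries), and Rpl36al gave 41.3% beside Rpl36a (38.0% to 44.5%). Rpl7l1 gave 1.74% beside Rpl7 and Rps4y2 gave 3.30% beside Rps4x. Rpl22 in 12/- was 142, 137 and 138 and Rpl22l1 was 258, 294 and 324, inside the range of the libraries of normal development for both genes. Within the low range of library numbers, however, Rpl22 was among the 27 members that lay above all 5 libraries of normal development.

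The start sites of the members were searched for 3 short pyrimidine motifs. Pyrimidine runs at the start are the feature through which the core genes are known to be controlled together. Other pyrimidine runs were not searched, so a window without a motif may still hold one. Of the 83 members, 61 had an entry in the RefSeq promoter table (GRCm38.p6). In the 30 bases before to 50 bases after the start, on the transcribed strand, CTTTCC stood in 29.5% of them (4.36% of all 27025 symbols), CTCTTT in 31.1% (3.57%) and CTTTTC in 14.8% (3.31%). These 3 motifs can overlap; at least 1 of them stood in 34 of 61 members (55.7%), against 9.94% of all symbols and 8.67% of tested genes outside the set. CCGGAAGT, searched on both strands of the 300 bases, stood in 19.7% of members, 4.31% of all symbols and 9.81% of tested genes outside the set. TATAAA, on the transcribed strand, stood in 9.84% of members, 9.77% of all symbols and 4.86% of tested genes outside the set. The windows printed here run from 15 bases before the start to 15 bases from it and are shown for members named above, with the first motif found in capitals; a match describes the letters and is no measured site.
Rps6, chr4:86857353-86857382, minus strand: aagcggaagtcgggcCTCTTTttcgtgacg
Rpl18, chr7:45718056-45718085, plus strand: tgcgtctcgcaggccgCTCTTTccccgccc
Rpl38, chr11:114668565-114668594, plus strand: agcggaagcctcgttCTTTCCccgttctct
Rpl6, chr5:121204486-121204515, plus strand: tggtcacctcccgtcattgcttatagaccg
Rplp0, chr5:115559452-115559481, plus strand: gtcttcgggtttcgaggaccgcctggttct
Rps19, chr7:24884577-24884606, plus strand: tccgaaatctcgcgagactcgacgcccgac
In Rps6 and Rpl38 the motif starts at the annotated start base and in Rpl18 next to it, while the windows of Rpl6, Rplp0 and Rps19, the last of which has 3 starts in the table, hold none of the 3 motifs. Rps6 and Rpl18, with a motif, were among the 15 members that lay above all libraries of normal development. So were Rpl6 and Rplp0, which had none in the printed window. Whether a motif goes with that order was not tested, and a window without one does not show that the gene lacks a pyrimidine run.

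Other parts of the translation machinery were looked at beside the members. Translation factors, many of which are known to carry the same start-site tract, had a median of 0.07 in 12/- against +/12, with 27 of 34 above 0, and 0.20 against +/+, also with 27 above 0. The median of 42 genes for ribosome biogenesis was -0.00 against +/12, with 21 above 0, and -0.06 against +/+, with 14 above 0. For 76 mitochondrial ribosomal proteins it was -0.01 with 36 above 0 and 0.01 with 40 above 0. None of these genes was called by limma in any of the 8 comparisons (unadjusted p under 0.05 for 1 to 11 translation factors, 0 to 6 biogenesis genes and 2 to 9 mitochondrial genes). Other short, abundant genes, 212 of under 1000 nucleotides and at least 100 FPKM, had medians of -0.01 against +/12 and -0.06 against +/+. Their medians were 0.03 against +/-, 0.07 against +/vg, with 131 above 0, and 0.01 against the mean of the 4 genotypes. For the difference between both contrasts, their median was 0.15, with 127 above 0, where that of the members was 0.22.

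Of 22 genes of the mTOR pathway and of regulators of these mRNAs, 13 were above 0 in 12/- against +/12 (median 0.04). Above 0 were 14 against +/+ (median 0.09), 11 against +/- (median -0.01) and 10 against +/vg (median -0.02). Among the 22, Eif4ebp1 was called higher in all 5 comparisons of 12/- (0.209% of all genes were called against +/12 and 0.607% against +/+). It codes for 4E-BP1, the mTOR substrate that binds the cap-binding factor eIF4E and holds back translation when unphosphorylated. It stood at 93.2, 82.9 and 92.4 in 12/-, at 45.3 to 64.3 with a median of 48.7 in the 12 libraries of normal development, and at 64.1 in the 12/vg library. No library of another genotype reached those of 12/-, and the log2 difference was 0.65 ± 0.11 against +/12 (SE; limma adjusted p = 0.0278) and 0.83 ± 0.11 against +/+ (SE; limma adjusted p = 0.0036). Ddit4, a stress-induced inhibitor of mTOR, rose against +/- (2.01 ± 0.39, SE; limma adjusted p = 0.0407) and against the mean of the 4 genotypes (1.67 ± 0.31, SE; limma adjusted p = 0.0202). Its levels were low, with 5.46, 5.91 and 10.2 in 12/- and 0 to 3.12 in the libraries of normal development. The 0 came from +/- replicate 2, a shallow library, while +/- replicates 1 and 3 had 1.45 and 2.15. Ddit4 was not called against +/12, +/+ or +/vg.

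Markers of cell types were set beside these values. The summed level of the 20 endothelial markers was 1860 to 2134 in 12/-, 1544 to 1936 in the libraries of normal development and 2014 in the 12/vg library. Their median log2 difference was 0.26 against +/12, with 18 of 20 above 0, and 0.36 against +/+, with 19 of 20 above 0. Flt1, a VEGF receptor, stood at 51.3, 48.6 and 45.2 in 12/- and at 23.0 to 35.1 in the libraries of normal development, and rose against +/+ (0.84 ± 0.15, SE; limma adjusted p = 0.0235). Megakaryocyte markers, 10 of 10 detected, summed to 371 to 1561 in 12/- and to 257 to 2034 in the libraries of normal development; 0 of 10 were above 0 against +/12 and 10 of 10 against +/+. Erythroid markers, of which 6 of 12 reached a mean of 1 FPKM, summed to 88.4 to 343 in 12/- and 100.4 to 247 in the libraries of normal development. For other cell types few markers were tested, and their medians are given for 12/- against +/12 and then against +/+. They were 0.36 and 0.38 for 4 neural and epithelial markers and -0.05 and 0.44 for 3 macrophage markers. For 6 cardiomyocyte markers they were -0.22 and -0.43, for 6 mesenchymal markers -0.20 and -0.19, and for 4 smooth muscle markers 0.08 and 0.05. The part of all these markers in the difference of the ribosomal protein genes was not tested.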

How the data were processed

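The members and gene lists were chosen with earlier results of these data known. The authors deposited 1 table per library with 28107 transcripts, each with an FPKM, a coverage and a status, per the file headers; FPKM values are length- and depth-normalised, so no count test was used. The deposited coverage served only for the depth in gigabases. Per the submitters' processing notes, TopHat2 2.0.9 was the aligner and mm9 the build; strandedness and read length were not given in the sources used here. FPKM was summed per symbol (Python 3.11.15, pandas 2.3.3). Symbols with a transcript whose status was not OK (211) were not tested. Libraries were scaled by median ratios over 8610 genes. limma 3.58.1 in R 4.3.3 (lmFit, eBayes with trend=TRUE, two-sided) was run on log2(scaled FPKM + 1) with all 16 libraries in 6 groups (10 residual degrees of freedom), adjusted by Benjamini-Hochberg; folds on this scale understate changes of low genes. The script was tested on simulated data. Named members were those called in each comparison or, with none called, the 2 rises and 2 falls of smallest p, those at the ends of level and variability, paralogs, Rps6, Rps19, Rplp0, Rpsa and Rpl38, and up to 4 called members of each list. Members called in other settings and those named in counts of non-overlapping libraries were named after their values were seen. Results of 3 members are not reported here by name, and 2 figures leave those members out. Low values are least precise in the 2 shallow libraries. Alternatives covered scaling, pseudocount, filters, the fit, library number range, depth and leaving out each library.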

Additional observations from a re-analysis of the deposited data

Results flagged for a closer look

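Signal also stood in 2 rows outside the set. Rpl34-ps1, left out by its pseudogene-style name, had a mean of 1033 scaled FPKM, with 821 to 1237 over the 16 libraries, while the row named Rpl34 at the same locus (mm9 chr3:130429755-130433247) had a mean of 65.98 FPKM. Both rows lie at that locus, so the split of Rpl34 signal between them is uncertain. With the Rpl34-ps1 row added, the mean share was 32.2% in 12/- and 28.7% to 29.8% in the other genotypes.

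Rps19-ps3 (mm9 chr4:147195886-147196311) had a mean of 7.40 scaled FPKM. It stood at 20.9, 17.1 and 12.7 in +/vg, at 12.1 in the 12/vg library and at 29.3 in +/12 replicate 1, while the other 11 libraries had 1.24 to 4.18. The libraries with the vg allele were thus all above those of +/+, +/- and 12/-, but +/12 replicate 1, which lacks that allele by its label, was the highest. Against +/+, the log2 difference of +/vg was 2.25 ± 0.54 (SE; limma adjusted p = 0.340).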

How the results depend on the processing

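No paired analysis was possible because the labels give no replicate numbers that tie libraries across genotypes. The members' median log2 difference stayed above 0 in all 5 comparisons of 12/- under every alternative run. Without scaling, which moves the median of all genes by 0.11 in 12/- against +/12, the members' medians were 0.33 against +/12 and 0.30 against +/vg, and 0.043 for +/- against +/+, where it turned positive. The number of members called was less stable, and the cause was not tested. For 12/- against +/+, 2 members (64 genes in all) were called; the number was 1 with a pseudocount of 0.1 or with eBayes without trend, 0 without a filter on low values, 0 in a fit of the compared groups only, 0 with the library number range as a covariate and 0 with that covariate and without the 2 shallow libraries. It was 11 (143 genes in all) with array weights, 9 (114 in all) without the shallow libraries and 0 to 3 with each library left out in turn (0 without +/+ replicate 2 or 3 and without 12/- replicate 1 or 3). For 12/- against +/- it was 1 (40 in all) without the shallow libraries and 0 to 10 with each library left out, 10 without +/- replicate 3 (156 in all, against 60 with every library). Array weights gave 1 against +/vg (183 in all, against 47) and 12 against the mean of the 4 genotypes (249 in all, against 83), where leaving out the shallow libraries gave 5 (138 in all) and leaving out each library 0 to 5. Rpl17 lost its call against +/+ in 8 alternatives and Rpl6 in 12, both always higher in 12/-.

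By FPKM times transcript length the mean shares were 13.6% in +/+, 13.2% in +/-, 13.9% in +/vg, 13.9% in +/12, 13.7% in 12/vg and 15.3% in 12/-. Over genes with a transcript of 300 nucleotides or more they were 32.3%, 31.1%, 32.2%, 31.4%, 31.3% and 34.5% in that order, and without Mtrnr2l 31.2%, 30.3%, 31.5%, 31.8%, 32.0% and 33.7%.

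Of the named members, none called changed sign. Signs turned for Rps27l in 12/- against +/12 without scaling (0.036) and against the mean with the covariate (0.024, or 0.026 also without the shallow libraries). In 12/- against +/-, Rps25 gave 0.039 with array weights, 0.034 with the covariate, 0.16 without the shallow libraries, 0.16 without +/- replicate 2 (-0.6555 without +/- replicate 3) and 0.25 with the covariate and without the shallow libraries. Rps19bp1 in 12/- against +/vg gave 0.004 without 12/- replicate 1 and -0.19 without 12/- replicate 3. Rpl30 gave 0.55 with the covariate and 0.12 also without the shallow libraries against +/vg, and 0.15 with the covariate against the mean. In +/12 against +/+, Rpl41 gave 0.043 with the covariate and 0.025 also without the shallow libraries, where Rps27l gave 0.008. Rps13 in +/- against +/+ gave -0.043 with the covariate and without the shallow libraries. The covariate with the shallow libraries left out was chosen after seeing the data.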
